A study of Mus musculus with 15 samples.

Results

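Vdr, Trpv6, S100g and Atp2b1, the receptor for vitamin D and the main genes of calcium passage through the absorptive cell, were followed across 15 arrays of mouse small intestinal epithelium. They were chosen by function, with earlier results of these data known, as the transcript clusters whose only gene symbol was one of these names. They are 4 of the 19938 genes that the array names by a single symbol. Each has 1 cluster on the array, numbered 10432032 for Vdr, on chromosome 15, 10544348 for Trpv6, on chromosome 6, 10607705 for S100g, on chromosome X, and 10366004 for Atp2b1, on chromosome 10. Testing took genes with a mean above 4.91, the median of all deposited log2 values, in at least 1 group. Of the 19938 genes, 11784 were tested, with 3 of the 4 studied here among them and Trpv6 below that level.

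The arrays (Affymetrix Mouse Gene 1.0) measured RNA of isolated epithelial cells from adult mice, with 3 arrays in each of 5 groups. These were ileum and jejunum of wild-type CD1 mice, ileum of control mice, ileum of Gata4 conditional knock-in mice (cKI) and jejunum of Gata4 conditional knockout mice (cKO). GATA4 is a zinc-finger transcription factor of the proximal small intestine, and the comparisons ask how its gain in the ileum and its loss in the jejunum relate to the normal difference between the segments. The same wild-type jejunum arrays enter jejunum against ileum and cKO against wild-type jejunum with opposite sign. Opposite differences of a gene in these comparisons are therefore not independent of each other. The labels name neither the strain and genotype of the controls nor the Cre driver of either line, they list no control jejunum for the cKO mice, and whether each array of a group is another animal is not stated, which leaves the p-values to measure the spread between arrays alone. The wild-type ileum and jejunum are CD1 whereas the background of the other groups is not given, so in cKO against wild-type jejunum genotype and strain cannot be told apart. In cKI ileum against wild-type jejunum, and in cKO jejunum against wild-type ileum, segment and genotype differ at once and strain may too. Their parts cannot be told apart in these comparisons.

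Checks of the labels bear on every comparison. Gata4 had a mean log2 signal of 5.60 in wild-type ileum, 9.53 in wild-type jejunum, 6.82 in control ileum and 8.21 in cKI ileum, and 9.84 in the jejunum labelled cKO, where it was not lower than in wild-type jejunum (difference 0.31 ± 0.18 SE, adjusted p = 0.322). The labels do not say which part of the gene was deleted or where the cluster's probes lie, so this signal does not check the cKO label. The ileal bile acid binding protein gene Fabp6 stood at 12.67 ± 0.21 (SD, n = 3) in those arrays, against 4.40 ± 0.47 in wild-type jejunum and 12.68 ± 0.16 in wild-type ileum. Lactase, Lct, stood at 7.60 ± 1.13, 11.86 ± 0.19 and 4.72 ± 0.11 in the same 3 groups. All 8 epithelial markers, Epcam, Cdh1, Vil1, Cdx2 and 4 keratins, were above 4.91 in every group, and their mean lay between 10.8 and 11.3 on each of the 15 arrays.

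Calcium leaves the lumen either through the cell or between cells. The route through the cell enters by the channel TRPV6 in the brush border, crosses the cytosol bound to calbindin (the product of S100g) and leaves by the plasma membrane calcium pump encoded by Atp2b1, helped by the sodium-calcium exchanger Slc8a1. The active hormone calcitriol binds the vitamin D receptor, which pairs with a retinoid X receptor on DNA and is known to raise the genes for the channel, the carrier and the pump. Transport under hormonal control is known best from the proximal intestine, whereas passage between cells, through claudin pores, goes on along the whole length.

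The promoters of S100g and Atp2b1 are printed because these were the genes that were higher in the jejunum labelled cKO, and their promoters differ in base content. Each window runs from 250 bases before to 30 bases after the start given by RefSeq on build GRCm38.p6, in the direction of transcription, and all 4 genes had an entry. The S100g window is chrX:162964570-162964849 on the minus strand and the Atp2b1 window, the upstream of its pair of starts, is chr10:98914392-98914671 on the plus strand. Capitals mark matches to the motifs searched.
S100g: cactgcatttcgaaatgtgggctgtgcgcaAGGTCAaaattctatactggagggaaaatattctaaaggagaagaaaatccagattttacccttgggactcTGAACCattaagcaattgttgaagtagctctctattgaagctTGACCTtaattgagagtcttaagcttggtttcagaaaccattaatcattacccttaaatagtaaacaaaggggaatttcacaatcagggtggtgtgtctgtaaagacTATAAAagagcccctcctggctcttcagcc
Atp2b1: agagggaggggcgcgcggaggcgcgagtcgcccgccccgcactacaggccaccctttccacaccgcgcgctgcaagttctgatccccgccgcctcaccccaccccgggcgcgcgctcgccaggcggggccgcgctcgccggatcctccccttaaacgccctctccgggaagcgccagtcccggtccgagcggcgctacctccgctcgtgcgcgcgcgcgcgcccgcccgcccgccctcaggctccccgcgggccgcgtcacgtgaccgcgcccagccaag
The S100g window is AT-rich, with 40% G and C and 2 CpG, and 10.7% of the 32851 windows of the same length have less G and C. The Atp2b1 window is rich in G and C, with 78.2% G and C and 48 CpG, more than 98.1% of all windows. The capitals in S100g are 3 hexamers of the kind bound by nuclear receptors (AGGTCA, its variant GGGTCA, the form AGTTCA and the form GGTTCA, either strand) whose first bases lie at -220, -149 and -107, and TATAAA at 1, counting the start as 1. TATAAA read on the other strand is also a CDX motif (TTTATA, or the variant TTTATG), so these are the same letters. Of all windows, 41.7% hold such a hexamer, 22.1% a CDX motif on either strand and 8.02% TATAAA on the sense strand. The Atp2b1 window holds none of these. The Vdr window holds 1 hexamer, at -91, and the Trpv6 window 2, at -191 and -165. None of the 4 genes' windows has a pair of hexamers in direct repeat spaced by 3 bases, the arrangement preferred by the vitamin D receptor, which 13 windows (0.0396%) have. None holds a GATA motif (AGATAA, its variant TGATAA, the form AGATAG and the form TGATAG, either strand), which 28.7% of windows do, and this says only that those letters are not within these bases.

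Vdr, the receptor, gave a steady signal in all samples. On the 3 arrays in order of replicate number it read 10.87, 10.36 and 10.83 in wild-type ileum, 11.19, 11.05 and 11.03 in wild-type jejunum, and 10.65, 10.85 and 10.84 in control ileum. It read 10.50, 10.76 and 10.59 in cKI ileum and 11.14, 11.03 and 10.90 in the jejunum labelled cKO. All 6 jejunal arrays were above all 9 ileal arrays, and the whole spread from 10.36 to 11.19 was under 1 log2 unit. The order of the group means was wild-type jejunum (11.09 ± 0.09, SD), cKO jejunum (11.02 ± 0.12), control ileum (10.78 ± 0.11), wild-type ileum (10.69 ± 0.28) and cKI ileum (10.62 ± 0.13), and no neighbours in that order passed the test. In the pairs compared for the order alone, 40.8% of all genes passed for wild-type jejunum against control ileum, 31.1% for cKO jejunum against control ileum, 36.1% for cKI against wild-type ileum and 36.5% for cKO jejunum against cKI ileum.

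Vdr was higher in wild-type jejunum than in wild-type ileum by 0.40 ± 0.13 (SE), 1.32-fold, with an adjusted p of 0.0448 in the limma fit over all genes. In this comparison 21.3% of the 11784 tested genes passed, so a call there is not rare (13.4% were higher). In bulk samples such as these, fewer cells of a type and less RNA per cell cannot be told apart. With the replicate number as a block over all arrays the adjusted p was 0.0649, and 0.0383 with the block within the groups whose numbers pair. Without wild-type ileum replicate 2, the low array, the difference was 0.24 with an adjusted p of 0.214. The call was also lost without any one of the 3 wild-type jejunum arrays, control ileum replicates 2 or 3, cKI ileum replicates 1 or 3, or cKO jejunum replicate 2. Vdr did not pass between cKI and control ileum (difference -0.16, 95% interval -0.45 to 0.13, adjusted p = 0.589) or between cKO and wild-type jejunum (-0.07, interval -0.35 to 0.22, adjusted p = 0.812). Against wild-type ileum, the jejunum labelled cKO was higher on every array, with a difference of 0.34 (interval 0.05 to 0.62) that did not pass the correction (adjusted p = 0.178).

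**Figure D1:**
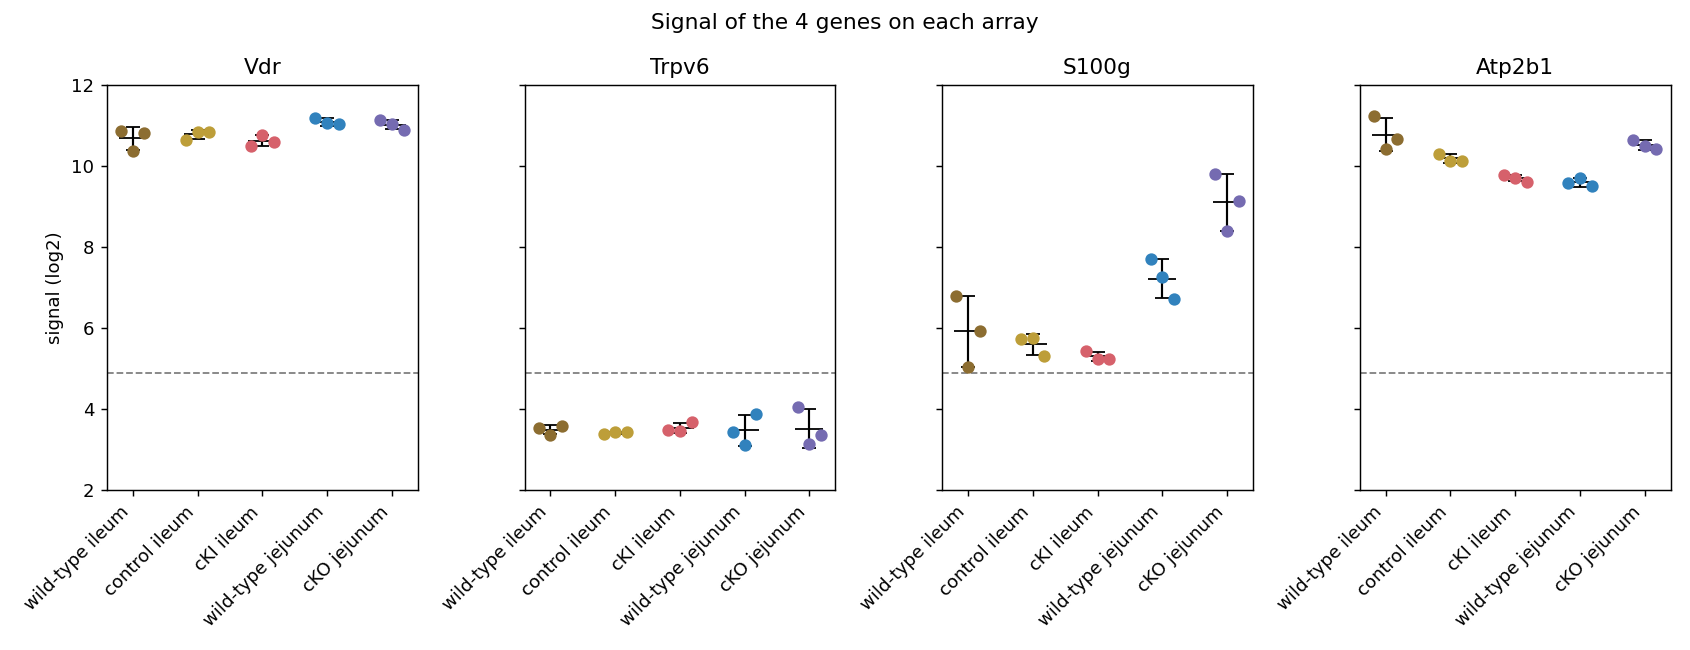
Log2 signal of Vdr, Trpv6, S100g and Atp2b1 in each of the 15 arrays (points) with the group mean and SD (bar and whiskers), by group; the dashed line is the level of 4.91. S100g spans from 5.05 in wild-type ileum to 9.80 in cKO jejunum, Atp2b1 is highest in wild-type ileum, Vdr stays between 10.36 and 11.19, and Trpv6 stays under the dashed line.

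Trpv6, the channel of the brush border, was low everywhere. Its 3 arrays read 3.53, 3.37 and 3.59 in wild-type ileum, 3.44, 3.11 and 3.89 in wild-type jejunum, and 3.39, 3.43 and 3.44 in control ileum. They read 3.48, 3.47 and 3.68 in cKI ileum and 4.06, 3.15 and 3.37 in the jejunum labelled cKO. All 15 values lay under 4.91, and the group means, from 3.42 to 3.55, differed by less than the SD within the jejunal groups (0.39 and 0.48). The gene entered the fit only when the level filter was dropped, and its adjusted p was then 0.983 for jejunum against ileum, 0.923 for cKI against control ileum and 0.935 for cKO against wild-type jejunum. Its relative Trpv5, the epithelial calcium channel of the kidney, had group means from 3.59 to 3.71, and Cacna1d, a voltage-gated calcium channel, was below the level too. No difference in apical entry channels was therefore measurable on this array.

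S100g, the calbindin that carries calcium through the cytosol, varied most of the 4. It read 6.80, 5.05 and 5.93 in wild-type ileum and 7.70, 7.27 and 6.72 in wild-type jejunum. It read 5.74, 5.75 and 5.31 in control ileum and 5.43, 5.24 and 5.25 in cKI ileum. In the jejunum labelled cKO it read 9.80, 8.39 and 9.14, and each of these 3 arrays was above each of the other 12. The order was cKO jejunum (9.11 ± 0.70, SD), wild-type jejunum (7.23 ± 0.49), wild-type ileum (5.93 ± 0.88), control ileum (5.60 ± 0.25) and cKI ileum (5.31 ± 0.11). In that order the neighbours cKO and wild-type jejunum, and wild-type jejunum and wild-type ileum, differed, whereas the 3 ileal groups did not differ beyond their spread (adjusted p from 0.229 to 0.754).

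In the wild type, S100g was higher in jejunum than in ileum by 1.30 ± 0.39 (SE), 2.46-fold (adjusted p = 0.0258), although the lowest jejunal array, 6.72, was below the highest ileal array, 6.80. The call was lost without wild-type ileum replicate 2 (0.86, adjusted p = 0.131), wild-type ileum replicate 3 (adjusted p = 0.0626), or wild-type jejunum replicates 1 or 2 (adjusted p = 0.116 and 0.0741). Between cKI and control ileum the difference was -0.29 (interval -1.12 to 0.53, adjusted p = 0.754), in a comparison in which 0.764% of genes passed.

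The jejunum labelled cKO exceeded wild-type jejunum in S100g by 1.88 ± 0.39 (SE), 3.69-fold (adjusted p = 0.00439), and 12.8% of genes passed in that comparison, 5.17% as higher. The 1510 genes behind that share fell to 990 without wild-type jejunum replicate 1 and to 999 without replicate 2. Leaving out any single array kept the difference between 1.54 and 2.24 and its adjusted p at or under 0.0236. S100g in those arrays was also above wild-type ileum, by 3.18 ± 0.39, 9.08-fold (adjusted p = 0.000306), where 5.1% of genes passed. For this gene the jejunum labelled cKO was farther from wild-type ileum than wild-type jejunum was, whereas its Fabp6 was at the ileal level and its Lct between the segments. S100g is X-linked. On each of the 15 arrays Xist (2.26 to 3.24) was under 4.91 and the Y-linked genes Kdm5d, Eif2s3y and Uty (6.10 to 8.28) were above it, a male pattern in every group.

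Atp2b1, the pump that exports calcium at the basolateral membrane, ran against S100g between the wild-type segments. It read 11.24, 10.43 and 10.66 in wild-type ileum and 9.58, 9.70 and 9.50 in wild-type jejunum, with no overlap. It read 10.31, 10.13 and 10.12 in control ileum, 9.78, 9.70 and 9.62 in cKI ileum, and 10.65, 10.48 and 10.42 in the jejunum labelled cKO. The group means were ordered wild-type ileum (10.78 ± 0.42, SD), cKO jejunum (10.52 ± 0.12), control ileum (10.19 ± 0.10), cKI ileum (9.70 ± 0.08) and wild-type jejunum (9.59 ± 0.10). No neighbours in this order passed the test, with adjusted p from 0.132 to 0.621, although the ends differed.

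Atp2b1 was lower in wild-type jejunum than in wild-type ileum by 1.18 ± 0.16 (SE), 2.27-fold (adjusted p = 7.23e-05), in a comparison in which 7.91% of genes were lower. The call held without each array in turn, with differences from -1.35 to -0.95. In the jejunum labelled cKO it was higher than in wild-type jejunum by 0.92 ± 0.16, 1.90-fold (adjusted p = 0.00129), and it was then -0.26 from wild-type ileum (interval -0.60 to 0.08, adjusted p = 0.399). In cKI ileum all 3 arrays were below all 3 control arrays, by 0.49 ± 0.16 or 1.40-fold, and the interval was -0.83 to -0.15. This did not pass the correction over all genes (unadjusted p = 0.00832, adjusted p = 0.181), so 0 of the 3 tested genes were called by limma between cKI and control ileum, and 1 had an unadjusted p under 0.05. Against wild-type jejunum, Atp2b1 in cKI ileum differed by 0.11 (interval -0.23 to 0.45, adjusted p = 0.621).

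**Figure D2:**
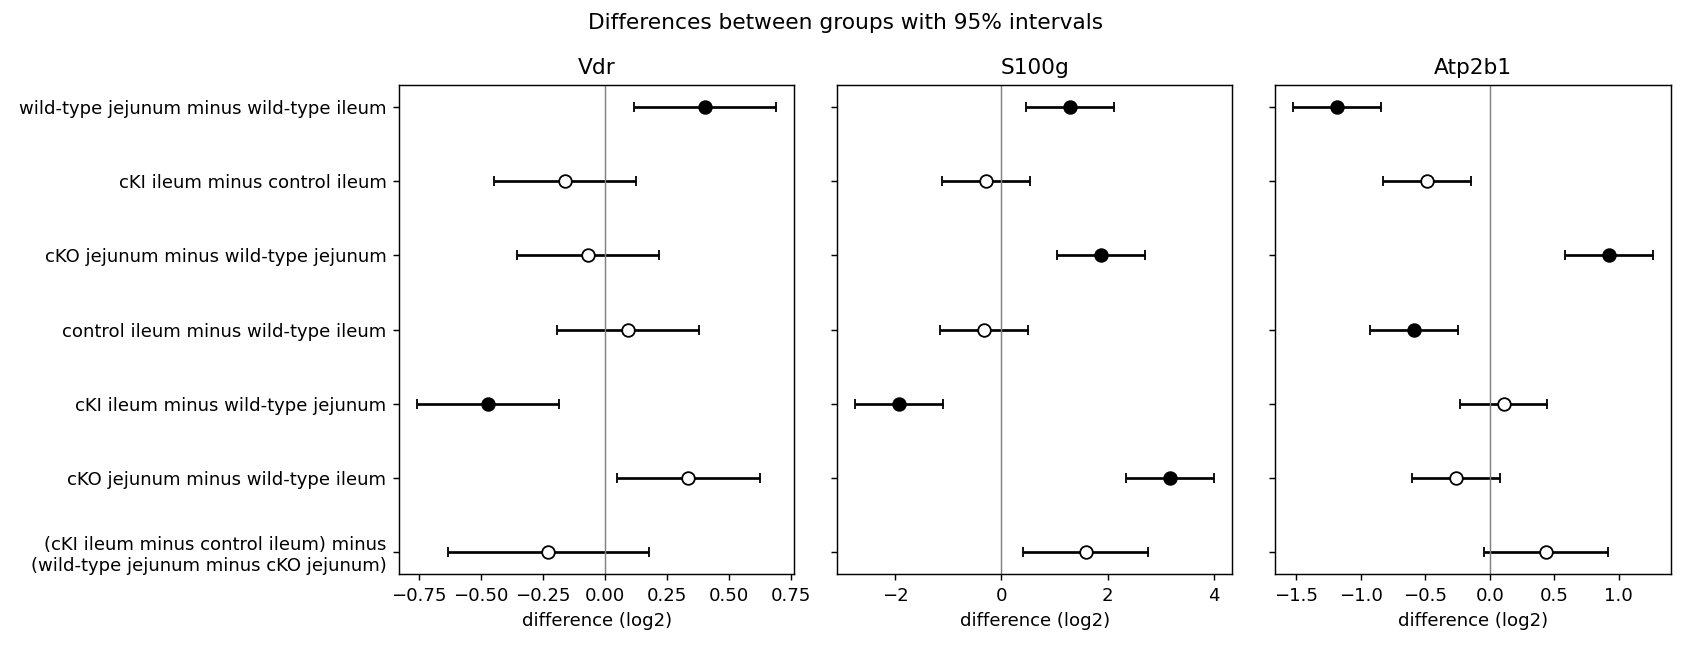
Log2 differences of Vdr, S100g and Atp2b1 with their 95% intervals, for 7 comparisons, filled where the adjusted p was under 0.05. In wild-type jejunum against ileum S100g is up by 1.30 and Atp2b1 down by 1.18, and in cKO against wild-type jejunum both are up, by 1.88 and 0.92.

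The 2 ileal references differed from each other in 1 of the 3 genes. Control ileum was lower than wild-type CD1 ileum in Atp2b1 by 0.59 ± 0.16 (SE), 1.50-fold (adjusted p = 0.0134), and 27.9% of all tested genes passed in this comparison, 8.61% as lower. Without wild-type ileum replicate 1, the highest array, that difference was -0.36 (adjusted p = 0.0489). Vdr (0.09, adjusted p = 0.644) and S100g (-0.33, adjusted p = 0.57) did not pass. Set against wild-type jejunum, where 41.8% of genes passed, cKI ileum was lower in Vdr by 0.47, 1.38-fold (adjusted p = 0.0116), and in S100g by 1.92, 3.79-fold (adjusted p = 0.00119). Segment, genotype and possibly strain differ between these groups and cannot be told apart.

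The cKI and cKO changes were also compared directly, as the difference between cKI minus control ileum and wild-type minus cKO jejunum, each written as more against less Gata4 by the labels. For S100g this came to 1.59 ± 0.55 (SE, interval 0.42 to 2.76), for Atp2b1 to 0.44 ± 0.23 and for Vdr to -0.23 ± 0.19. None passed the correction (adjusted p = 0.15, 0.356 and 0.593), with 2.94% of all genes passing, and S100g alone had an unadjusted p under 0.05, at 0.0112. For Atp2b1 the arrays labelled with more Gata4 were lower in both contrasts, by 0.49 in ileum and 0.92 in jejunum, and only the second passed. These contrasts share no arrays, but the Gata4 signal was not lower in the jejunum labelled cKO, and genotype and strain cannot be told apart there. With the epithelial covariate the ileal difference of Atp2b1 was -0.22. Whether Gata4 is behind either difference was not tested.

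Vdr, S100g and Atp2b1 varied together within the wild-type ileum, where replicate 1 was highest and replicate 2 lowest for each. The same order held in the mean of 8 villus enterocyte markers (Alpi, Apoa1, Apoa4, Ada, Sis, Anpep, Treh and Enpep), whose array means ran from about 10 to 11.1 in that group. After removal of the group means, the correlation over the 15 arrays was 0.78 for S100g with Atp2b1, 0.61 for Vdr with S100g and 0.53 for Vdr with Atp2b1. With the group means kept, these were 0.28, 0.74 and -0.02. These describe 15 arrays that share groups and normalization, and carry no test.

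The villus enterocyte markers moved with the groups. Their array means ran from 11.96 to 12.26 in wild-type jejunum, 11.3 to 11.9 in the jejunum labelled cKO, 10.3 to 10.6 in control ileum and 9.73 to 11.1 in cKI ileum. Of the 8, 5 were higher in wild-type jejunum than ileum, where 13.4% of all genes were higher. Treh alone, 1 of the 8, was lower in the jejunum labelled cKO than in the wild type. In that comparison 12.8% of all genes were called, so 1 call among 8 is not unusual. The mean of the 8 markers was then used as a covariate, an alternative chosen after seeing the data. With it the jejunum minus ileum difference was -0.04 for S100g (adjusted p = 0.971), 0.03 for Vdr (0.949) and -1.70 for Atp2b1 (0.000458). Because the array means of the 2 wild-type segments do not overlap, the segment and this marker level cannot be told apart. Between cKO and wild-type jejunum the difference with the covariate was 2.36 for S100g (adjusted p = 0.000489), against 1.88 without it. For Atp2b1 it was 1.11 (adjusted p = 0.000204), against 0.92. The array means of these 2 jejunal groups do not overlap either, so the cKO label and this marker level cannot be told apart.

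**Figure D3:**
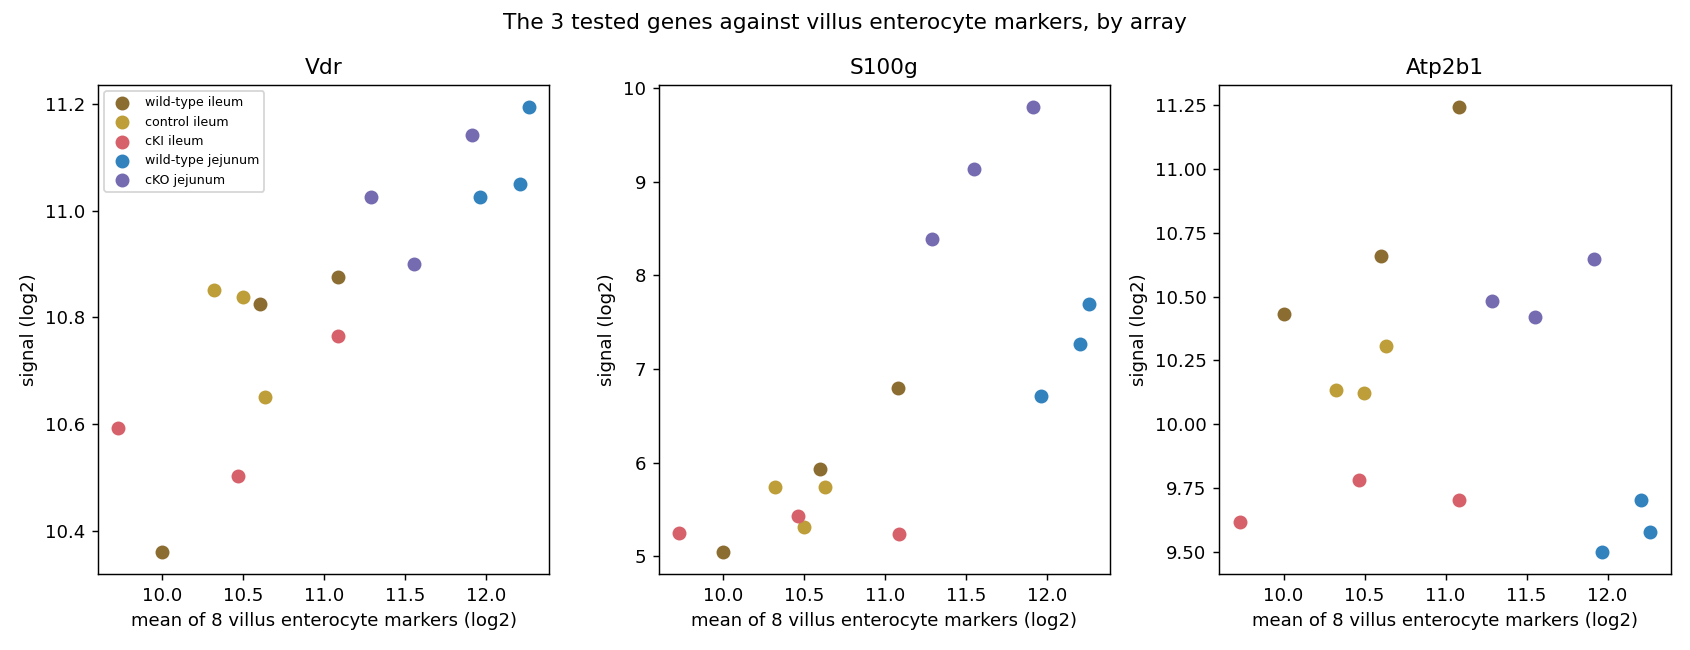
Log2 signal of each gene against the mean of the 8 villus enterocyte markers on the same array, coloured by group. The S100g points of the jejunum labelled cKO, from 8.39 to 9.80, lie above those of wild-type jejunum, from 6.72 to 7.70, although their marker means are lower.

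Markers of other cells in the preparation also differed. The 12 stromal and smooth muscle markers had array means from 5.57 to 5.95 in wild-type ileum, 4.81 to 5.08 in wild-type jejunum, 5.69 to 6.78 in control ileum, 5.40 to 5.77 in cKI ileum and 5.10 to 5.36 in the jejunum labelled cKO. Of the 11 tested, 7 were lower in wild-type jejunum than in ileum, 2 lower in cKI than in control ileum and 1 higher in cKO than in wild-type jejunum. Of all tested genes, 7.91% were lower in wild-type jejunum than in ileum and 0.764% were called in cKI against control ileum. In cKO against wild-type jejunum 5.17% of all genes were higher, and these shares stand beside the marker counts that follow too. Of the 8 epithelial markers, 3 were lower in wild-type jejunum than in ileum and 3 higher in the jejunum labelled cKO than in the wild type. With their mean as a covariate, also chosen after seeing the data, the cKO difference in S100g fell to 0.90 (adjusted p = 0.138) and that in Atp2b1 to 0.59 (adjusted p = 0.0426). With the stromal mean they were 1.78 (adjusted p = 0.0154) and 0.90 (adjusted p = 0.0043). For both marker lists the array means of cKO and wild-type jejunum do not overlap, so label and marker level cannot be told apart. Among markers of secretory and crypt cells, 5 of 6 tested goblet and 4 of 8 crypt stem cell genes were lower in wild-type jejunum than in ileum, and 4 and 3 of them were higher in cKO than in wild-type jejunum; their part in the results was not tested. The array means of 6 B and plasma cell genes ran from 4.88 to 6.76 in control ileum and 4.81 to 5.03 in cKI ileum, and those of 9 T and NK cell genes from 5.75 to 6.35 and 4.61 to 5.65, and their part was not tested either. For 11 proliferation genes, a further covariate, they ran from 7.66 to 8.01 in wild-type ileum and 7.50 to 7.82 in wild-type jejunum. The ranges were 7.99 to 8.36 in control ileum, 8.37 to 8.77 in cKI ileum and 7.45 to 8.09 in the jejunum labelled cKO. Those of cKI ileum and wild-type jejunum do not overlap, so these groups and this marker level cannot be told apart.

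Beyond these 4 genes, 66 others with roles in vitamin D action and in the handling of calcium, phosphate and magnesium were listed by function. The array named 58 of them and 40 were tested. These listed genes were chosen with earlier results of these data known, so their shares of calls are a description and not a test. Between wild-type jejunum and ileum 6 were higher, 13 lower and 21 did not pass, or 47.5% called against 21.3% of all genes, and their median difference was -0.20 against 0.00. Between cKI and control ileum 2 were lower and 38 did not pass (5% against 0.764%), with a median of -0.09 against 0.03. Between cKO and wild-type jejunum 9 were higher, 4 lower and 27 did not pass (32.5% against 12.8%), with a median of 0.04 against -0.03. Against wild-type ileum, the jejunum labelled cKO had 1 higher, 2 lower and 37 that did not pass (7.5% against 5.1%). Of the 40, Slc37a2 and Stc2 passed the level filter only through the group where they were highest. Without them the counts of 38 genes were 5 higher and 12 lower in wild-type jejunum against ileum and 9 higher and 3 lower in cKO against wild-type jejunum.

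**Figure D4:**
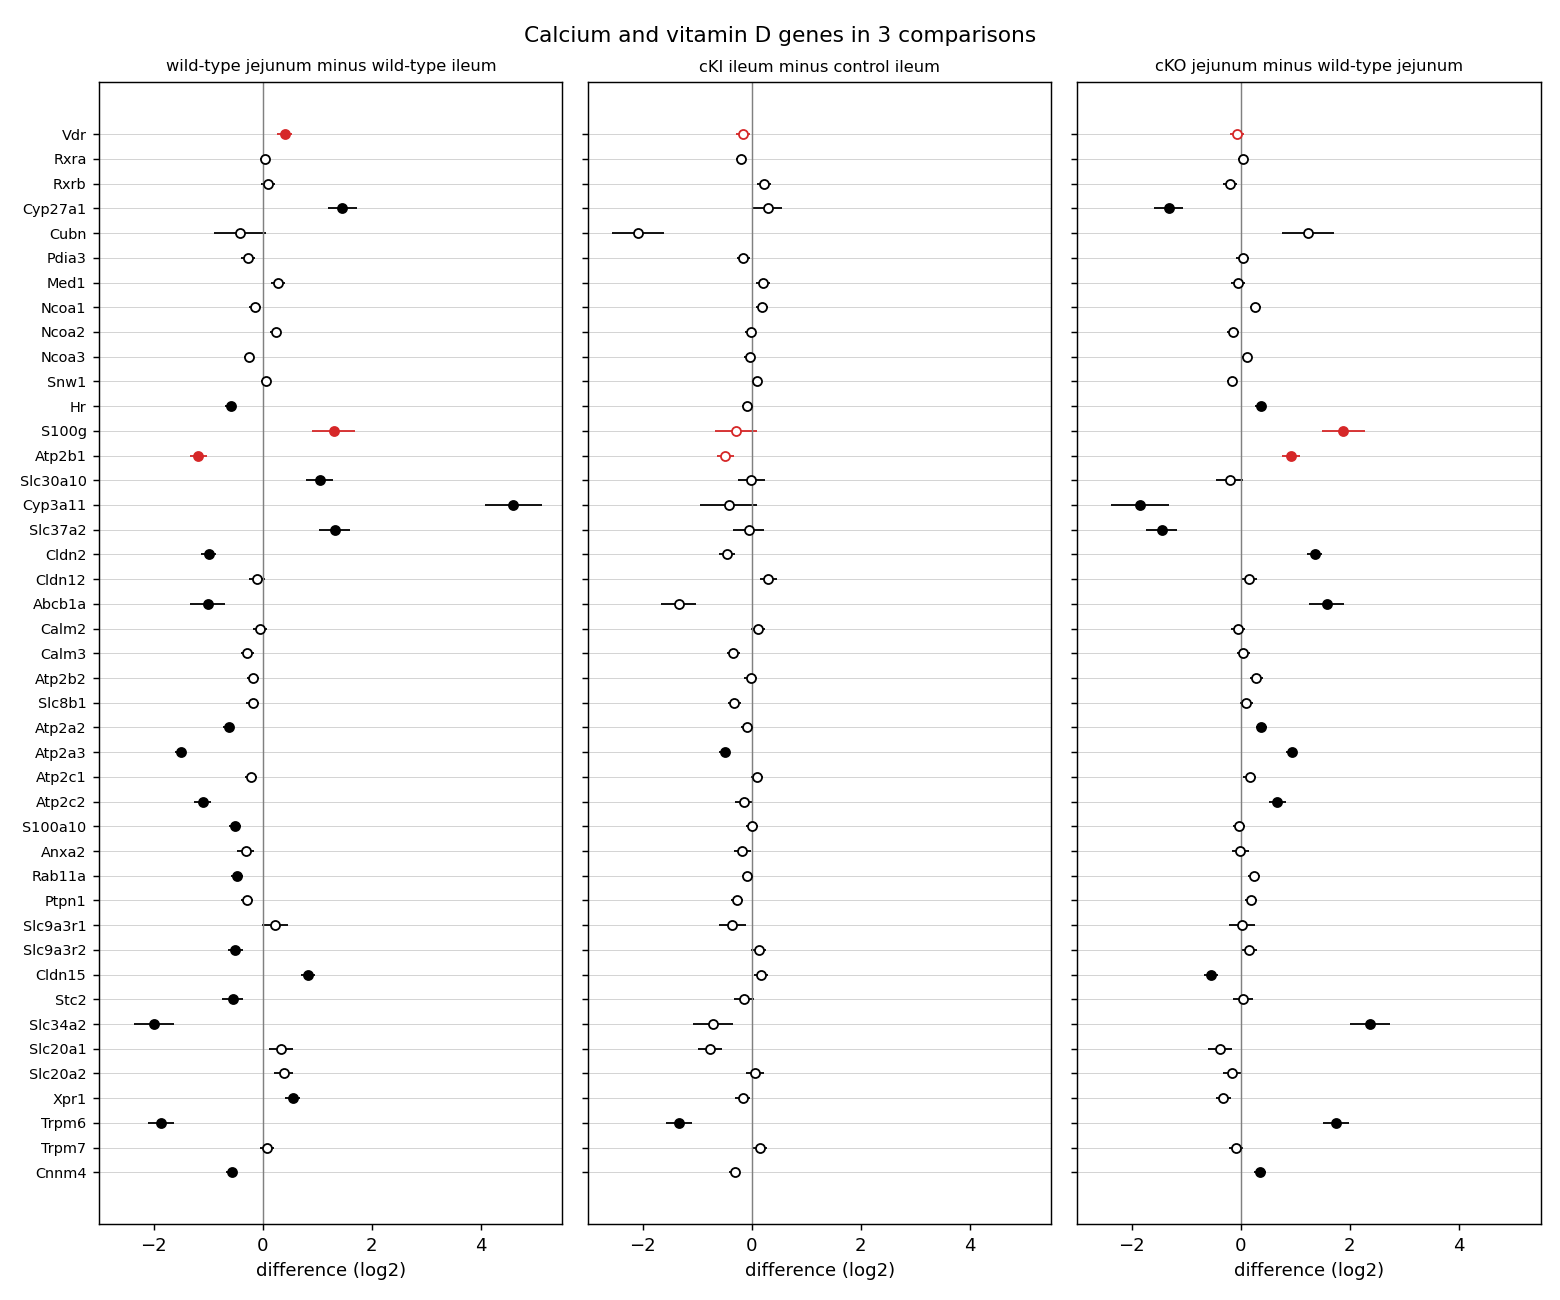
Log2 difference with its SE for each tested calcium or vitamin D gene (one line each, Vdr, S100g and Atp2b1 in red) in 3 comparisons, filled where the adjusted p was under 0.05. Filled points lie on both sides of 0 in wild-type jejunum against ileum and in cKO against wild-type jejunum, and are few in cKI against control ileum.

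Of 12 tested genes of vitamin D metabolism and receptor partnership, Vdr included, 2 were higher and 1 lower in wild-type jejunum than in ileum (25% called, against 21.3% of all genes). Cyp27a1, which encodes a sterol and vitamin D hydroxylase, was higher in wild-type jejunum by 1.46, 2.74-fold (adjusted p = 0.000922), and lower in the jejunum labelled cKO than in the wild type by 1.32 (adjusted p = 0.00358). Its level depended on the ileal reference, with means of 6.07 in wild-type ileum, 7.14 in control ileum, 7.43 in cKI ileum and 7.52 in wild-type jejunum. Cyp27a1 was higher in control than in wild-type ileum by 1.07 (adjusted p = 0.00784), and wild-type jejunum differed from control ileum by 0.38 (adjusted p = 0.265). With the villus covariate the Cyp27a1 difference between wild-type jejunum and ileum was 0.76 (adjusted p = 0.269). Hr, a corepressor that binds the vitamin D receptor, was lower in wild-type jejunum by 0.59 (adjusted p = 0.000725) and higher in the jejunum labelled cKO by 0.36 (adjusted p = 0.0311). With the stromal covariate the first Hr difference was -0.36 and lost its call (limma adjusted p = 0.113). The Hr call in the cKO comparison was lost without either of wild-type jejunum replicates 1 and 2 or any one of the cKO arrays. It was also lost with the replicate block within wild-type and within cKI and control arrays (adjusted p = 0.0598), only the arrays compared (0.1), no level filter (0.0533), and the stromal (0.0934) and epithelial (0.215) covariates. None of the 12 was called between cKI and control ileum by limma, and 2 had an unadjusted p under 0.05.

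Known vitamin D targets did not share 1 direction. Of 8 tested, S100g and Atp2b1 included, 4 were higher and 3 lower in wild-type jejunum than in ileum. That is 87.5% called, against 21.3% of all genes. In cKO against wild-type jejunum 4 were higher and 2 lower (75% called, against 12.8%). None was called between cKI and control ileum by limma (3 had an unadjusted p under 0.05), where 0.764% of all genes were called. Cyp3a11, which encodes a cytochrome of drug and steroid oxidation, was 10.44 in wild-type jejunum and 5.84 ± 1.31 (SD) in wild-type ileum, a difference of 4.60 ± 0.53 (SE, adjusted p = 1.48e-05). In the jejunum labelled cKO it was 8.59, lower by 1.85 than in wild-type jejunum (adjusted p = 0.0304), opposite to S100g. Slc37a2, a sugar phosphate exchanger gene, passed the level filter only through wild-type jejunum, with a mean of 5.66 there and 4.05 to 4.34 in the other groups, so its differences are given as a description and the counts above include it.

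Among the calcium pumps, Atp2b1 had company. Of 7 tested pump and exchanger genes, Atp2b1, Atp2a2, Atp2a3 and Atp2c2 were lower in wild-type jejunum than in ileum and 3 did not pass (57.1% called, against 21.3% of all genes). The ileal references differed in this list too: in control against wild-type ileum Atp2b1, Atp2a3 (by 0.44, adjusted p = 0.00465) and Atp2c2 (by 0.55, adjusted p = 0.0182) were lower and Slc8b1, a mitochondrial exchanger gene, was higher by 0.33 (adjusted p = 0.0453), against 27.9% of all genes called. In the jejunum labelled cKO against wild-type jejunum 4 were higher and 3 did not pass (12.8% of all genes called), a comparison that shares the wild-type jejunum arrays. Atp2a2, which encodes the widespread SERCA2 pump, differed by -0.63 (adjusted p = 0.000332) and 0.37 (adjusted p = 0.023) in the 2 comparisons. Atp2a3, which encodes the SERCA3 pump that fills the endoplasmic reticulum, was lower in wild-type jejunum by 1.51 ± 0.10 (SE, adjusted p = 7.53e-08) and higher in the jejunum labelled cKO by 0.93 ± 0.10 (adjusted p = 2.07e-05). It was also lower in cKI than in control ileum by 0.50 ± 0.10 (adjusted p = 0.0365). With the replicate block over all arrays the adjusted p of that cKI difference was 0.0516, and 0.0668 with the block within the groups whose numbers pair. It was 0.129 with only the arrays compared, 0.0564 with each array centred on its median, 0.0583 with no filter, 0.0614 with no moderation, and 0.349 and 0.106 with the stromal and epithelial covariates. The Atp2a3 difference between cKI and control ileum also lost its call without control ileum replicates 2 or 3, any cKI array, replicates 1 or 2 of wild-type jejunum or replicate 3 of wild-type ileum. Atp2c2, a secretory pathway calcium pump gene, was lower in wild-type jejunum by 1.10 (adjusted p = 0.000124) and higher in the jejunum labelled cKO by 0.67 (adjusted p = 0.0105). With the villus covariate the first Atp2c2 difference was -0.84 (adjusted p = 0.0649). The exchanger Slc8a1 was below the tested level.

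Of 6 genes whose products are known to bind or traffic TRPV6, 3 were lower in wild-type jejunum than in ileum (7.91% of all genes were lower). These were S100a10, the annexin partner that takes the channel to the membrane (by 0.51, adjusted p = 0.0039), Rab11a of recycling endosomes (by 0.48, adjusted p = 0.00414) and the scaffold gene Slc9a3r2 (by 0.51, adjusted p = 0.0154). Slc9a3r2 had means of 4.75 in wild-type jejunum and 4.90 in the jejunum labelled cKO, under the tested level, and 5.25 in wild-type ileum. Its call was lost when replicate 3 of either wild-type segment was left out. It was also lost with the stromal (adjusted p = 0.32), villus (0.0906) and epithelial (0.197) covariates. Rab11a lost its call with the villus (0.0864) and epithelial (0.12) covariates and S100a10 with the epithelial covariate (0.22). None of the 6 was called by limma in the cKO or the cKI comparison, and 1 had an unadjusted p under 0.05 in each, where 12.8% and 0.764% of all genes were called.

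Of 3 paracellular claudins tested, 1 was higher, 1 lower and 1 did not pass in wild-type jejunum against ileum (21.3% of all genes called). The counts were the same in cKO against wild-type jejunum (12.8% of all genes called). Cldn2, a cation and water pore of tight junctions, had means of 8.40 in wild-type ileum, 7.41 in wild-type jejunum, 8.41 in control ileum, 7.95 in cKI ileum and 8.76 in the jejunum labelled cKO. It was lower in wild-type jejunum than in ileum by 0.99 ± 0.14 (SE, adjusted p = 0.000128) and higher in the jejunum labelled cKO than in the wild type by 1.35 ± 0.14 (adjusted p = 1.86e-05). Its difference between cKI and control ileum was -0.46 (adjusted p = 0.162). Cldn15, a sodium pore, went the other way, higher in wild-type jejunum by 0.83 (adjusted p = 0.000183) and lower in the jejunum labelled cKO by 0.55 (adjusted p = 0.00861). With the villus covariate both genes lost their call in wild-type jejunum against ileum. The differences were then -0.62 for Cldn2 (adjusted p = 0.0969) and 0.51 for Cldn15 (adjusted p = 0.118).

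Of 7 tested genes for phosphate and magnesium handling, 1 was higher and 3 lower in wild-type jejunum than in ileum (57.1% called, against 21.3% of all genes). Slc34a2, the sodium-phosphate cotransporter of the brush border, was lower in wild-type jejunum than in ileum by 1.99 ± 0.37 (SE), 3.97-fold (adjusted p = 0.00102), and higher in the jejunum labelled cKO than in the wild type by 2.37 ± 0.37, 5.19-fold (adjusted p = 0.000509). With the epithelial covariate the Slc34a2 differences were -0.55 (adjusted p = 0.216) and 1.27 (adjusted p = 0.00391), and with the stromal covariate the first was -1.73 (adjusted p = 0.0667). Trpm6, a magnesium channel, had means of 6.26 in wild-type ileum, 7.33 in control ileum, 5.99 in cKI ileum and 6.14 in the jejunum labelled cKO, and 4.39, under the tested level, in wild-type jejunum. It was lower in cKI than in control ileum by 1.34 ± 0.24 (adjusted p = 0.0186), and that call was lost without control ileum replicate 2 or cKI ileum replicate 1. The same Trpm6 difference was -0.87 with the stromal covariate (adjusted p = 0.341) and -0.98 with the epithelial covariate (adjusted p = 0.144), and its adjusted p was 0.0894 with only the arrays compared and 0.0827 with no moderation. Cnnm4, a basolateral magnesium exporter gene, was lower in wild-type jejunum by 0.57 (adjusted p = 0.000939) and higher in the jejunum labelled cKO by 0.35 (adjusted p = 0.0368). The Cnnm4 call in the cKO comparison was lost when any one of the 6 jejunal arrays, or replicate 3 of wild-type ileum, was left out. That call was also lost with no level filter (adjusted p = 0.0637), only the arrays compared (0.0929) and array weights (0.0526). The same held for the stromal (0.0996) and epithelial (0.471) covariates. With these covariates Cnnm4 lost its call in wild-type jejunum against ileum too (adjusted p = 0.0831 and 0.132). Of the calcium hormones, Stc2 alone reached the tested level, and only in wild-type ileum, where its mean was 5.07 against 4.52 to 4.68 in the other groups, so its difference is given as a description.

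Over the 15 arrays, the tested genes whose signal followed each gene most closely were ranked by Pearson correlation, as a description. S100g was followed by Alas1 (0.95), the first enzyme of heme synthesis, by the carboxylesterases Ces2b and Ces2a (each 0.95), and by Mlf2 and Ghitm (each 0.94). Atp2b1 was followed by Slc25a24 (0.95), a calcium-dependent mitochondrial carrier gene, then Slc22a23 (0.95), Crybg1 (0.94), Cutal (0.93) and Cyp51 (0.92). Vdr was followed by Dqx1 and Crybg2 (each 0.93), Adamtsl5 and Igsf3 (each 0.92) and the dipeptidase gene Pepd (0.91). For Trpv6, low throughout, the highest was Tmem200b at 0.80. After removal of the group means, the values for the same genes ran from 0.39 (Crybg1) to 0.75 (Cutal) with Atp2b1, with Cyp51 at 0.57. They ran from 0.75 (Ces2a) to 0.89 (Ces2b) with S100g and from 0.79 (Pepd) to 0.91 (Crybg2) with Vdr, and Tmem200b stood at 0.89 with Trpv6.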

How the data were processed

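RNA of isolated small intestinal epithelium was measured on 15 Affymetrix arrays, 3 in each of 5 groups given by the labels. The authors deposited 1 log2 value per transcript cluster (35556 clusters), made with Partek per the submitters' processing notes. The Partek version, the background correction and the normalization are not given in the sources used here. The log2 scale is inferred from the range of the values.

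Genes were clusters with exactly 1 symbol in the platform annotation (21789 clusters, 19938 symbols), taking the cluster with the highest mean for each symbol. Genes with a largest group mean above the median of all values, 4.91, were tested (11784). A linear model with 1 mean per group over all 15 arrays, with 10 residual degrees of freedom, was fitted in R 4.3.3 with limma 3.58.1 and eBayes. Tests were two-sided, with Benjamini-Hochberg adjustment over all genes tested in a comparison and a threshold of 0.05. An SE or 95% interval is the moderated one of this fit, and the code was tested on simulated data. For arrays, their number limits the precision.

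The genes studied and the lists were chosen with earlier results of these data known. Named beside them are up to 3 genes per list with the smallest p among those that pass in jejunum against ileum, cKI against control and cKO against wild-type jejunum, any listed gene that passes in the direct comparison of the cKI and cKO changes, Gata4, and the 5 genes most correlated with each gene studied; Atp2a2 and Slc8b1 were named after their values were seen, as were Trpv5, Cacna1d and Slc8a1, which were below the tested level.

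Replicate numbers in the labels were checked for pairing by the correlation of same-numbered arrays' deviations from their group means. It was over the limit of 0.1 for all 3 pairs of wild-type jejunum and ileum (0.33, 0.22 and 0.16) and of cKI and control ileum (0.13, 0.18 and 0.26), but not for cKO and wild-type jejunum (0.18, -0.02 and -0.07). Fits with the number as a block, other scalings, filters, weights and marker covariates, and omission of each array were run as alternatives. Promoter windows are RefSeq's, on GRCm38.p6.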

Additional observations from a re-analysis of the deposited data

Results flagged for a closer look

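The claudin gene Cldn2 was the listed gene whose change differed between the ileum labelled cKI and the jejunum labelled cKO, each against its reference, by the test of that difference itself. The change in ileum, cKI minus control, was -0.46 on the log2 scale, and in jejunum the wild type was below the cKO by 1.35 ± 0.14 (SE). The difference between the 2 changes was 0.90 ± 0.20 (SE, limma adjusted p = 0.0276), and 2.94% of all tested genes passed that test. Over the single-array omissions it ran from 0.76 to 1.03. The call was lost without wild-type jejunum replicate 1, control ileum replicates 2 or 3, cKI ileum replicates 1 or 3, or cKO jejunum replicates 2 or 3. It was also lost with no moderation (adjusted p = 0.0635), only the arrays compared (0.0551) and the stromal (0.0561), proliferation (0.67, adjusted p = 0.0802) and villus (0.75, adjusted p = 0.0658) covariates.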

How the results depend on the processing

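Of 616 values for the 4 genes under up to 29 alternatives, 572 kept their direction and their side of the threshold, 29 lost a call, 3 gained one and 12 changed sign. More of these values belong to results without a call in the main fit than to called ones, so the 572 do not measure how stable the calls are. Leaving out an array outside a comparison cannot change its difference. Trpv6 had no test in the main fit, and its values count as kept because dropping the filter leaves its differences unchanged. Of 27 results for the other named genes, 687 values were kept, 90 lost the call and 1 changed sign, Stc2 in jejunum against ileum with the villus covariate (0.049). The marker covariates are largely confounded with the groups, and the cause of each change was not tested.

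Vdr in wild-type jejunum against ileum lost its call with quantile normalization (0.33, adjusted p = 0.101), with no level filter (0.40, adjusted p = 0.0704), no variance moderation (0.0609), only the arrays compared (0.0809), the replicate block over all arrays (0.0649), the proliferation covariate (0.34) and the villus covariate (0.026). S100g there lost it with no moderation (1.30, adjusted p = 0.0765) and the stromal covariate (1.56), and changed sign with the villus covariate (-0.041). In cKI against control ileum Vdr changed sign with the stromal (0.076) and epithelial (0.083) covariates and S100g with the proliferation (0.23) and epithelial (0.50) covariates. In cKO against wild-type jejunum Vdr changed sign with quantile normalization (0.014) and the villus covariate (0.066), and S100g lost its call with the epithelial covariate (0.90). In control against wild-type ileum Vdr changed sign with the stromal covariate (-0.047) and S100g with the proliferation covariate (0.29), and Atp2b1 lost its call with only the arrays compared (-0.59, adjusted p = 0.0587) and the proliferation covariate (-0.44). In cKI ileum against wild-type jejunum Vdr lost its call with the proliferation (-0.17) and villus (-0.061) covariates, S100g with the same (-0.46 and -0.47), and Atp2b1 changed sign with the epithelial covariate (-0.10). Vdr in cKO jejunum against wild-type ileum passed with the epithelial covariate (0.43), and S100g in the comparison of the cKI and cKO changes passed with the proliferation (2.34, adjusted p = 0.0132) and villus (2.11, adjusted p = 0.0338) covariates.

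Without each array in turn, Vdr ran from 0.24 to 0.50 and S100g from 0.86 to 1.74 in wild-type jejunum against ileum, and from -0.070 to 0.19 and from -0.77 to 0.11 in control against wild-type ileum. The replicate block changed no other call of Vdr, S100g or Atp2b1 in the 3 first comparisons.

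Calls over all genes numbered 2507 in jejunum against ileum (3967 with array weights, 1602 and 1098 with the stromal and villus covariates), 4924 in cKI ileum against wild-type jejunum (2093 with the proliferation and 1215 with the villus covariate) and 601 in cKO jejunum against wild-type ileum (377 with no moderation, 300 with only the arrays compared, 190 with the villus and 1119 with the epithelial covariate, and 283 and 371 without wild-type ileum replicates 2 or 3). They numbered 90 in cKI against control ileum (52 with no filter, 6 with no moderation, 21 with only the arrays compared, 766 with array weights, 12, 216 and 48 with the stromal, villus and epithelial covariates, and 53, 55, 52, 192, 40, 39, 20 and 38 without wild-type ileum replicate 3, wild-type jejunum replicates 1 or 2, control ileum replicates 1, 2 or 3, or cKI ileum replicates 1 or 3). They numbered 346 in the comparison of the cKI and cKO changes (187 with no moderation, 819 with array weights, 203 with the proliferation and 691 with the epithelial covariate, and 177, 191, 180, 182, 575 and 201 without wild-type jejunum replicates 1 or 2, cKI ileum replicates 1 or 3, or cKO jejunum replicates 1 or 2). With quantile normalization the share of calls that were higher went from 62.8% to 52% in jejunum against ileum, from 40.3% to 51.2% in cKO against wild-type jejunum and from 69.1% to 47.9% in control against wild-type ileum, where the median of all genes went from 0.08 to -0.02. Trpv6 has only the alternative without a filter, and no gene studied has another cluster to try. The low signal of Trpv6, under the tested level on every array, limits what could be measured.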
